A study of Mus musculus with 9 samples.

Results

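The messenger RNAs of 10 genes of drug and steroid metabolism were followed in mouse liver: the cytochrome P450 genes Cyp1a2, Cyp2a4, Cyp2a5, Cyp2a12, Cyp2a22, Cyp2d9, Cyp2d10, Cyp2f2 and Cyp2j5, and Por, the reductase that feeds them electrons. These 10 genes were picked by name from 23337 gene symbols in the count tables, as liver cytochromes of several subfamilies with their shared reductase. RNA sequencing covered 9 livers of wild-type mice, 3 in each of 3 diet groups. The ND group ate a normal diet, the HFD group a high-fat diet labelled 60%, and the HFD_HDCA group the same high-fat diet with 0.25% hyodeoxycholic acid (HDCA), a secondary bile acid. Diets began at 8 weeks of age and lasted 12 weeks, and livers were taken in the fed state. Sex, strain, cage and hour of sampling were not used here, because the labels analysed do not give them.

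Cytochrome P450 enzymes are heme proteins of the endoplasmic reticulum that insert an oxygen atom into their substrate, and each catalytic cycle takes electrons from NADPH through the reductase encoded by Por, with cytochrome b5 as a second donor for some reactions. In the liver these genes are expressed mostly by hepatocytes, and many of them unevenly between the portal and the central end of the lobule. Cyp1a2 is the constitutive hepatic target of the aryl hydrocarbon receptor (AHR), Cyp2d9 is known as a male-predominant steroid 16-alpha-hydroxylase, and Cyp2a4 as a female-predominant steroid 15-alpha-hydroxylase.

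Of the 10 genes, Cyp1a2 passed the test in all 3 comparisons. It was lower on the high-fat diet than on the normal diet, and lower again with HDCA in the diet. Against ND, the HFD_HDCA livers also held less Cyp2a5, Cyp2a12 and Cyp2f2 RNA, and more reads of Cyp2a4. Cyp2a22 reads were higher in HFD than in either other group. Cyp2d9, Cyp2d10, Cyp2j5 and Por passed in no comparison of the main edgeR fit. DESeq2 passed Cyp2d9 and Cyp2d10 between HFD_HDCA and HFD, and some alternative edgeR settings passed Cyp2d9 and Por there. Because the Cyp2a genes form 2 pairs of near-copies, Cyp2a4 with Cyp2a5 and Cyp2a12 with Cyp2a22, the reads of Cyp2a4 and Cyp2a22 are uncertain, and the sequences that separate the copies are shown first.

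The mouse Cyp2a genes and Cyp2f2 lie together on chromosome 7 (build mm10), with Cyp2a4 at 26307192-26315088, Cyp2a5 at 26835339-26843264, Cyp2a22 at 26931631-26939386, Cyp2a12 at 27029090-27036815 and Cyp2f2 at 27119955-27133660. In the GENCODE M21 transcripts (GRCm38), Cyp2a4 and Cyp2a5 were identical at 98.4% of 1482 coding bases, with 23 differences, and the longest stretch without a difference ran to 216 bases. Cyp2a12 and Cyp2a22 were identical at 97.0% of 1476 coding bases, with 45 differences. Among 60-base coding windows that do not cross an exon boundary, those in which each pair differs most are printed below. A read tells the copies apart only where it covers bases that differ. Capitals mark the bases that differ within the pair. The first pair comes from exon 2 (coding bases 197 to 256), chr7:26307666-26307725 on the plus strand for Cyp2a4 and chr7:26835811-26835870 on the plus strand for Cyp2a5. The second comes from exon 3 (coding bases 371 to 430), chr7:27030766-27030825 on the plus strand for Cyp2a12 and chr7:26938139-26938198 on the minus strand for Cyp2a22.
Cyp2a4: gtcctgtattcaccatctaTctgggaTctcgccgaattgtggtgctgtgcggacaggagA
Cyp2a5: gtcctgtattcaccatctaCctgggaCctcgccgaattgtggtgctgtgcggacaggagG
Cyp2a12: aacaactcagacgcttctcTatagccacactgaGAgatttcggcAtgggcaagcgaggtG
Cyp2a22: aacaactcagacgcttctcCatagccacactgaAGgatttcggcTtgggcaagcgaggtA

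Even at its densest, the Cyp2a4 and Cyp2a5 pair differs at 3 of 60 bases and the Cyp2a12 and Cyp2a22 pair at 5. Of the 1423 windows of 60 coding bases, 442 held no difference between Cyp2a4 and Cyp2a5. The corresponding number for Cyp2a12 and Cyp2a22 was 343 of 1417. Cyp2d9 and Cyp2d10, neighbours on chromosome 15 at 82452377-82456827 and 82402846-82407194, were further apart, at 92.5% of 1512 coding bases.

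**Figure D1:**
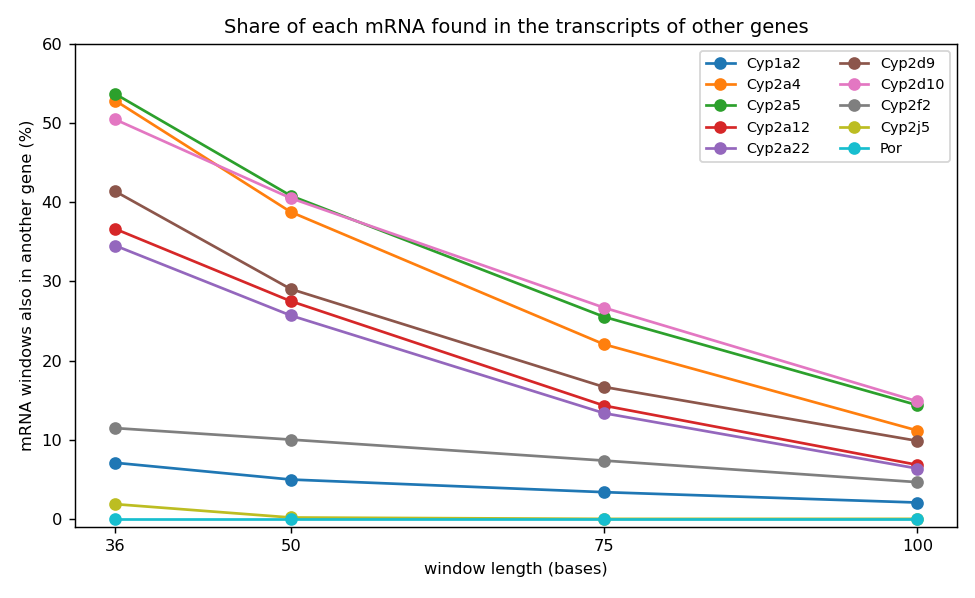
Share of each gene's mRNA windows (%, y axis) found letter for letter in a transcript of another gene, against window length (36, 50, 75 and 100 bases, x axis), 1 line per gene. At 50 bases the share was 40.8% for Cyp2a5 and 38.8% for Cyp2a4, and 0% for Por.

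At a window of 50 bases, 38.8% of the Cyp2a4 mRNA and 40.8% of the Cyp2a5 mRNA were also found in another gene, mainly the other member of the pair. The share was 27.5% for Cyp2a12, 25.7% for Cyp2a22, 29.0% for Cyp2d9 (most often with Cyp2d12, in 178 of 1663 windows) and 40.5% for Cyp2d10 (mainly shared with Cyp2d11). Cyp1a2 shared 4.97% with Cyp1a1, and Cyp2f2 shared 10.02% with the overlapping gene model Gm15883. Cyp2j5 shared 0.174% and Por none at that length. The read length is not given in the sources used here, and the plot of shared windows shows how the shares fall as windows lengthen.

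Between 16994353 and 20509203 reads were assigned to genes in each library, and levels are given in CPM, counts scaled to a common library size, after correction by the trimmed mean of M-values. Reads at several places made up 16.6% to 19.4% of the reads in ND, 13.3% to 14.0% in HFD and 14.5% to 15.97% in HFD_HDCA. All 10 genes passed the filter on low counts. The 6 hepatocyte markers summed to 83962 to 93497 CPM in ND, 102230 to 122690 in HFD and 109620 to 123240 in HFD_HDCA, with none at 0. The ND sums thus lay below those of both high-fat groups. None of the 6 passed edgeR's test in any comparison. An unadjusted p under 0.05 was reached by 2 between HFD and ND, both higher in HFD. In HFD_HDCA, 1 reached it against HFD and 4 against ND, all higher in HFD_HDCA. No gene of the lists for macrophages, endothelial, stellate, bile duct, T and NK, B or neutrophil cells passed the test by edgeR or DESeq2, while 0, 5 and 6 of 28 had an unadjusted p under 0.05 between HFD and ND, HFD_HDCA and HFD, and HFD_HDCA and ND. All 3 B cell markers were among these in both HFD_HDCA comparisons, each higher in HFD_HDCA without overlap, with sums of 3.25 to 4.36 CPM against 1.16 to 2.87 in HFD and 1.62 to 1.98 in ND. The macrophage list summed to between 89.6 CPM (HFD 2) and 577 CPM (HFD 3). The part of these cells in the results was not tested. HFD 1 stood apart in the clock gene Dbp (85.8 CPM, against 0.752 to 14.6 in the other libraries) and HFD_HDCA 1 in the acute-phase gene Saa1 (3371 CPM, against 22.8 to 74.4). In a list of 5 clock and acute-phase genes, only the clock gene Per2 passed edgeR's test, in both HFD_HDCA comparisons. Per2 read 3.51 to 5.84 CPM in HFD_HDCA, below HFD (15.4 to 30.8) and ND (8.46 to 18.4). The labels do not give the hour of sampling, and its part in these values was not tested.

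**Figure D2:**
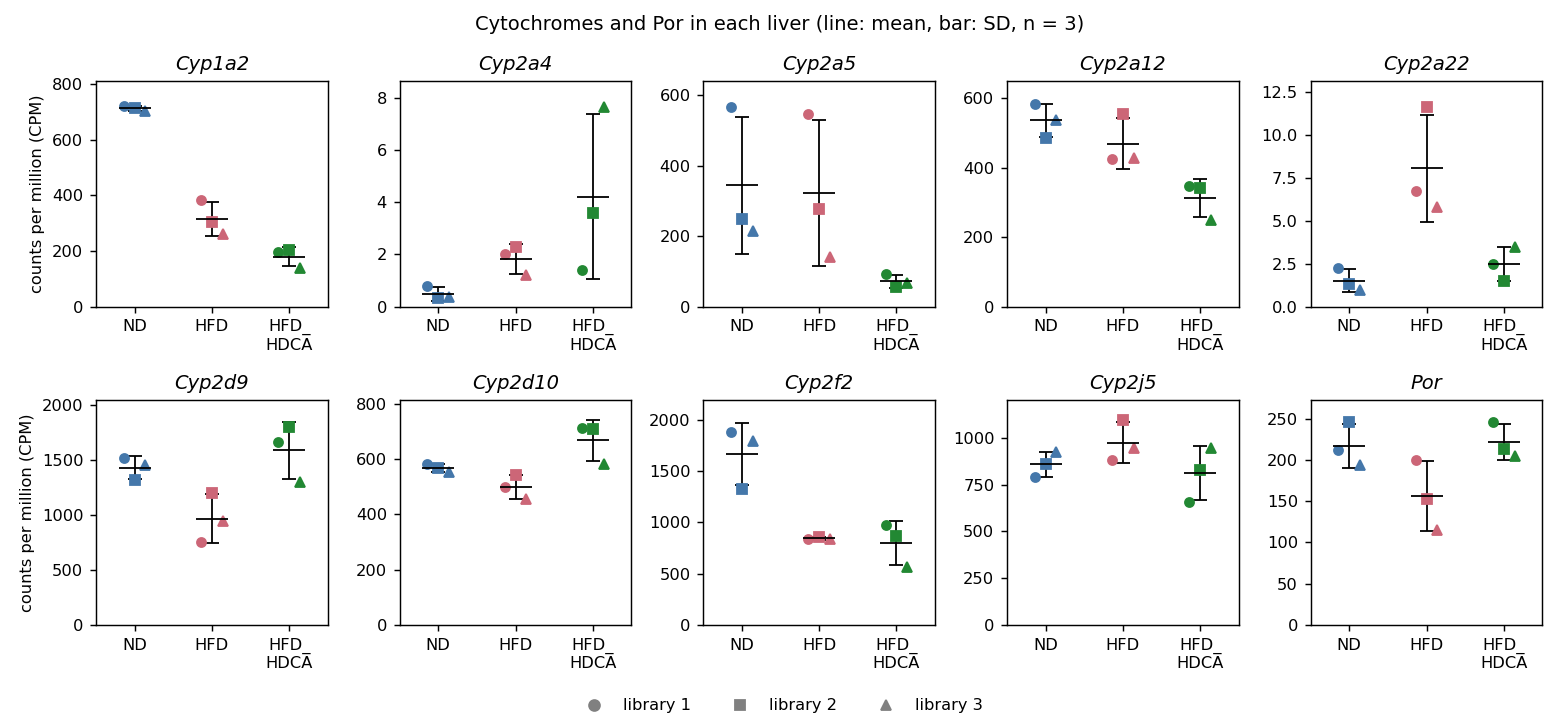
CPM of each of the 10 genes (y axes start at 0) in each library by diet group, with the group mean (line) and SD (bar, n = 3), symbols giving the library number. The Cyp1a2 values fall into 3 ranges that do not overlap, from 703 to 722 CPM in ND to 139 to 203 CPM in HFD_HDCA.

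Cyp1a2, on the minus strand of chromosome 9 at 57676937-57683655, oxidises caffeine and aromatic amines. It stood at 722, 714 and 703 CPM in the 3 ND livers, at 383, 304 and 262 CPM in the HFD livers and at 197, 203 and 139 CPM in the HFD_HDCA livers. Every HFD library was below every ND library, and every HFD_HDCA library below every HFD library. The group means were 713 ± 9.47, 316 ± 61.4 and 179.7 ± 34.97 CPM (SD, n = 3). By edgeR's quasi-likelihood test with Benjamini-Hochberg adjustment over 12587 genes, Cyp1a2 was 2.25-fold lower in HFD than in ND (log2 change -1.17 ± 0.18 SE, adjusted p = 0.0164). It was 1.76-fold lower in HFD_HDCA than in HFD (log2 change -0.82 ± 0.18, adjusted p = 0.0356) and 3.97-fold lower in HFD_HDCA than in ND (log2 change -1.99 ± 0.18, adjusted p = 0.000764). In a bulk sample, fewer cells that express a gene and less RNA per cell cannot be told apart.

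The difference of Cyp1a2 between HFD_HDCA and ND passed the test in all 19 alternative settings, with an adjusted p of at most 0.00553 when 1 library was left out. The difference between HFD and ND kept its size, between -1.33 and -1.05, but missed the threshold without ND 1 (adjusted p = 0.0605), ND 2 (0.0613), ND 3 (0.0667), HFD 2 (0.0647) or HFD 3 (0.0631). The difference between HFD_HDCA and HFD missed it without ND 1 (0.0686), ND 2 (0.0646), ND 3 (0.0586), HFD 1 (0.0519), HFD 2 (0.0744) or HFD_HDCA 3 (0.109), and likewise with the 6 libraries of the comparison alone (0.108) and with FPKM and no filter (0.0505).

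**Figure D3:**
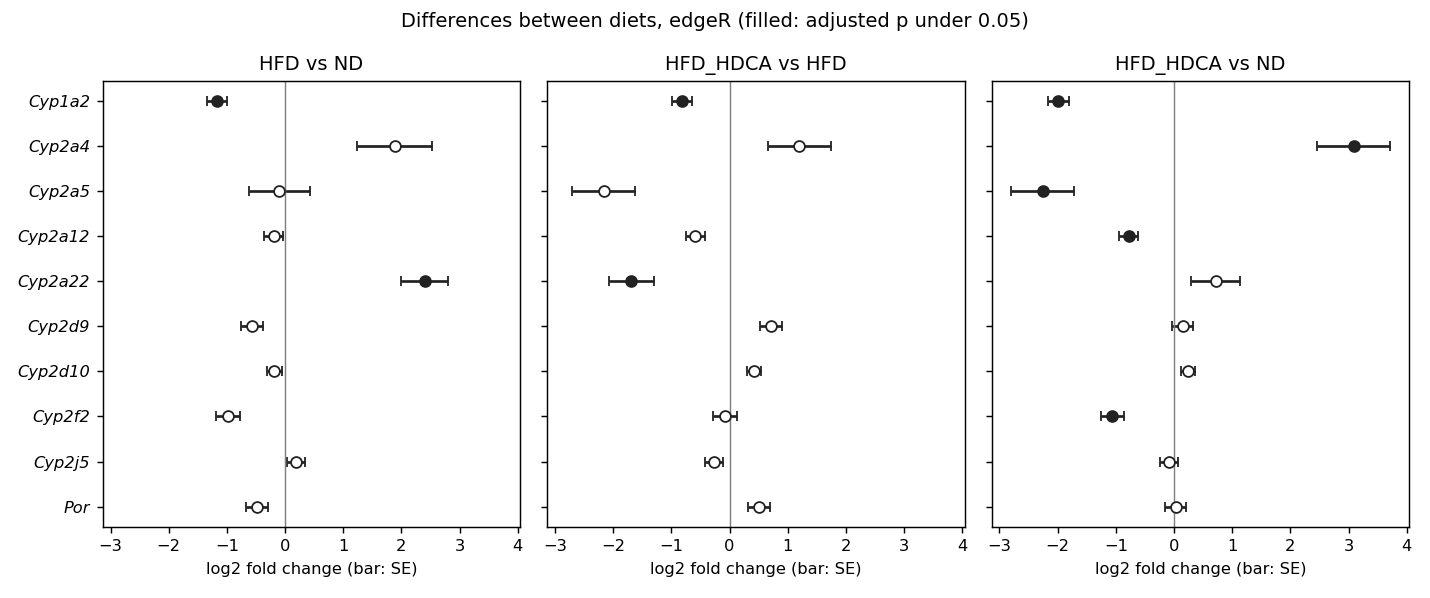
Log2 fold change (x axis) of each of the 10 genes in the 3 comparisons, as fitted by edgeR, with its SE (bar); filled points have an adjusted p under 0.05. Cyp1a2 is filled in all 3 panels, at -1.17, -0.82 and -1.99.

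Read against all genes, 2 of the 10 passed the test between HFD and ND (Cyp1a2 lower and Cyp2a22 higher), where 0.953% of all genes tested passed, 0.477% higher and 0.477% lower. Between HFD_HDCA and HFD 2 of the 10 passed (Cyp1a2 and Cyp2a22, both lower), where 3.4% of all genes passed, 1.67% higher and 1.73% lower. Between HFD_HDCA and ND 5 of the 10 passed, Cyp2a4 higher and Cyp1a2, Cyp2a5, Cyp2a12 and Cyp2f2 lower, where 6.47% of all genes passed, 3.65% higher and 2.82% lower. In CPM, the libraries of the groups did not overlap for 6, 7 and 6 of the 10 genes, against 20.1%, 22.4% and 33.9% of all genes tested. The 3 HFD libraries serve in 2 of these comparisons, as do the ND and the HFD_HDCA libraries, so the comparisons are not independent of each other. With both HFD 1 and HFD_HDCA 1 left out, 4, 3 and 4 of the 10 genes passed, where the number of all genes passing was 576, 977 and 1157 in place of 120, 428 and 815.

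The Cyp2a enzymes hydroxylate small molecules and steroids, and Cyp2a5 is the mouse coumarin 7-hydroxylase, the counterpart of human CYP2A6. Cyp2a5 stood at 567, 249 and 215 CPM in ND, at 548, 276 and 142 CPM in HFD, and at 91.6, 56.3 and 67.6 CPM in HFD_HDCA. Each HFD_HDCA library was below all ND and HFD libraries, while the ND and HFD ranges covered each other. The difference between HFD and ND was a log2 change of -0.10 ± 0.52 (adjusted p = 0.968, edgeR). Cyp2a5 was 4.79-fold lower in HFD_HDCA than in ND (log2 change -2.26 ± 0.55, adjusted p = 0.0489), and the difference from HFD, at -2.16 ± 0.54, missed the threshold (adjusted p = 0.0715).

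That call lies at the edge of the threshold. It was lost without ND 1 (adjusted p = 0.143, log2 change -1.69), ND 2 (0.089), ND 3 (0.0724), HFD 2 (0.0702), HFD_HDCA 1 (0.0954), HFD_HDCA 2 (0.0906) or HFD_HDCA 3 (0.136), and with the counts of Cyp2a4 and Cyp2a5 added together (log2 change -2.18, adjusted p = 0.0512). It was also lost with no filter on low counts (0.0976), without both HFD 1 and HFD_HDCA 1 (0.0557) and in the 3 settings on FPKM (0.0514 to 0.067), so 13 of 20 alternatives did not keep it. The difference from HFD passed in 3 alternatives, among them DESeq2 (0.00858) and a minimum count of 50 (0.046). Within each group the library numbered 1 held the most Cyp2a5, and also the most Dbp, at 14.6, 3.58 and 0.752 CPM in ND, 85.8, 2.27 and 1.41 CPM in HFD and 10.5, 2.79 and 3.01 CPM in HFD_HDCA. Dbp encodes a clock-driven transcription factor, and its part in the level of Cyp2a5 was not tested.

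Cyp2a12 stood at 584, 486 and 536 CPM in ND, at 425, 555 and 427 CPM in HFD and at 346, 340.0 and 249 CPM in HFD_HDCA. All 3 HFD_HDCA libraries were below the other 6, and the ND and HFD ranges overlapped. Cyp2a12 was 1.72-fold lower in HFD_HDCA than in ND (log2 change -0.78 ± 0.16, adjusted p = 0.0225, edgeR). The difference from HFD was -0.59 ± 0.16 (adjusted p = 0.0783), and that between HFD and ND was -0.19 ± 0.16 (adjusted p = 0.728). The difference from HFD passed in 4 of 20 alternatives: DESeq2 (0.012), without both HFD 1 and HFD_HDCA 1 (0.0428), and log2(FPKM + 1) and log2(FPKM + 0.1) with the filter (0.0321 and 0.0324). Without ND 1 (0.104), ND 2 (0.0508), ND 3 (0.0718) or HFD_HDCA 3 (0.0747) the call against ND was lost, at log2 changes from -0.85 to -0.64.

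Cyp2a22 was counted at a small fraction of its near-copy Cyp2a12. Its values were 2.24, 1.301 and 0.983 CPM in ND (43, 24 and 17 reads), 6.72, 11.6 and 5.78 CPM in HFD (124, 230 and 111 reads) and 2.48, 1.51 and 3.49 CPM in HFD_HDCA (41, 26 and 58 reads). The HFD libraries were above all others, and ND and HFD_HDCA overlapped. In these counts Cyp2a22 was 5.29-fold higher in HFD than in ND (log2 change 2.40 ± 0.40, adjusted p = 0.0236, edgeR) and 3.22-fold lower in HFD_HDCA than in HFD (log2 change -1.69 ± 0.38, adjusted p = 0.0435).

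The calls for Cyp2a22 depended on the table and on single libraries. In FPKM (fragments scaled to transcript length and depth), the gene read 14.4, 11.9 and 11.9 in ND, 12.7, 18.1 and 12.7 in HFD and 8.47, 7.67 and 6.88 in HFD_HDCA, so the ND and HFD ranges overlapped and HFD_HDCA lay below both. The difference between HFD and ND was then 0.16 on the log2(FPKM + 1) scale (adjusted p = 0.649, limma). On the same scale HFD_HDCA was lower than HFD by 0.82 (log2 change -0.82, adjusted p = 0.017) and differed from ND by -0.66 (adjusted p = 0.0269), against 0.71 ± 0.42 in the counts (adjusted p = 0.298, edgeR). On the counts, the call of HFD against ND was lost without ND 2 (adjusted p = 0.115), ND 3 (0.113) or HFD 2 (0.0715), and with the replicate number as a block. Of the 9 fits that left out 1 library, the call between HFD_HDCA and HFD held in 1, that without HFD 1 (adjusted p from 0.0425 to 0.118 over the 9), and without HFD 2 the log2 change was -1.32. It was also lost without both HFD 1 and HFD_HDCA 1 (0.0734) and with the 6 libraries alone (0.0794). Added to Cyp2a12, which carries most of the reads, the pair differed by -0.17 between HFD and ND (adjusted p = 0.76).

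For Cyp2a4 the kinds of deposited table gave opposite directions. Its counts were 15, 6 and 6 reads in ND (0.781, 0.325 and 0.347 CPM), 37, 45 and 23 reads in HFD (2.004, 2.27 and 1.20 CPM) and 23, 62 and 127 reads in HFD_HDCA (1.39, 3.60 and 7.64 CPM). All HFD and HFD_HDCA libraries were above the ND libraries, and the HFD_HDCA libraries were the most spread. By edgeR, Cyp2a4 reads were 8.52-fold higher in HFD_HDCA than in ND (log2 change 3.09 ± 0.63, adjusted p = 0.0208). The differences of HFD from ND (1.89 ± 0.64, adjusted p = 0.277) and of HFD_HDCA from HFD (1.20 ± 0.54, adjusted p = 0.229) missed the threshold. Without HFD_HDCA 3, the highest library, the log2 change against ND was 2.34 (adjusted p = 0.0582), and the call was also lost without ND 1 (0.0598), ND 2 (0.0901) or ND 3 (0.0831). A fit with the replicate number as a block did not keep the call either.

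In the FPKM tables the same gene read 42.1, 18.6 and 15.4 in ND, 45.2, 21.3 and 11.4 in HFD and 7.18, 6.01 and 8.97 in HFD_HDCA. There HFD_HDCA lay below both other groups, at a log2 change of -1.53 from ND on the log2(FPKM + 1) scale (adjusted p = 0.116, limma). The FPKM of Cyp2a4 was a nearly fixed share of that of Cyp2a5 in ND (12.6% to 12.8%) and HFD (12.8% to 13.0%), and 14.2% to 23.1% in HFD_HDCA. In reads the share ran from 0.131% to 0.161% in ND, from 0.366% to 0.846% in HFD and from 1.52% to 11.3% in HFD_HDCA. Set against depth-scaled reads per kilobase of the GENCODE mRNA, FPKM was 2.09 to 97.7 times as high for Cyp2a4 and 2.90 to 21.4 times as high for Cyp2a22. For the other 8 genes the ratio lay between 0.438 and 1.24. The direction of Cyp2a4 thus differed between the kinds of table, and the part of reads shared with Cyp2a5 in that difference was not tested.

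**Figure D4:**
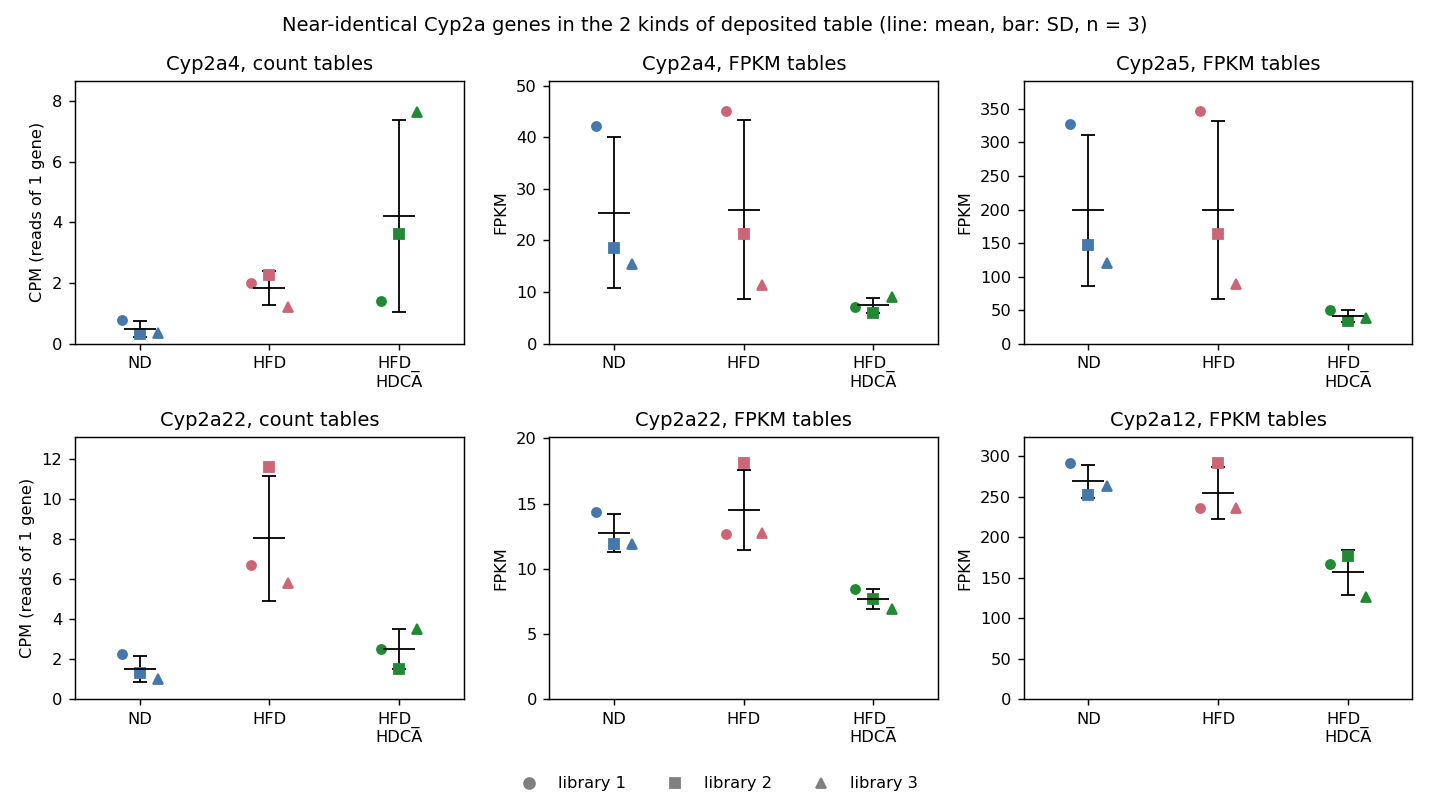
Cyp2a4 and Cyp2a22 in the count tables (CPM, left) and FPKM tables (middle), beside the FPKM of their near-copies Cyp2a5 and Cyp2a12 (right), by diet group, with mean and SD (n = 3). Cyp2a4 is lowest in ND by counts and lowest in HFD_HDCA by FPKM.

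Summed over the counts given to each gene, from which reads at several places are missing, the 4 Cyp2a genes averaged 881 CPM in ND, 801 CPM in HFD and 390.4 CPM in HFD_HDCA. Their summed counts were lower in HFD_HDCA than in ND (log2 change -1.17 ± 0.23, adjusted p = 0.0183, edgeR) and than in HFD (log2 change -1.04 ± 0.23, adjusted p = 0.0423). The HFD and ND pools differed by -0.14 ± 0.23 (adjusted p = 0.875). This sum was chosen after the data were seen, and Cyp2a5 and Cyp2a12 supply nearly all of it.

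Cyp2d9 and Cyp2d10, of a family that hydroxylates steroids and many drugs, were lowest in HFD. None of their differences passed edgeR's test in the main fit. Cyp2d9 stood at 1524, 1316 and 1458 CPM in ND, at 756, 1202 and 942 CPM in HFD and at 1664.5, 1797 and 1301 CPM in HFD_HDCA. All HFD libraries were below all libraries of the other groups, which overlapped. The log2 difference of HFD from ND was -0.57 ± 0.18 (adjusted p = 0.242, edgeR), and that of HFD_HDCA from HFD was 0.72 ± 0.19 (adjusted p = 0.0616). The HFD_HDCA difference passed without HFD 2 (log2 change 0.90, adjusted p = 0.0432), at a minimum count of 50 (0.0495) and with DESeq2 (0.00432).

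Cyp2d10 showed the same order with smaller gaps, at 581, 566 and 553 CPM in ND, 499.6, 541 and 457 CPM in HFD and 711, 709 and 583 CPM in HFD_HDCA. In CPM its 3 groups did not overlap, although HFD_HDCA 3 (583 CPM) and ND 1 (581 CPM) nearly met. In FPKM, HFD 2 (329.7) lay above ND 3 (316.5), so HFD and ND overlapped. By depth-scaled reads per kilobase, HFD_HDCA 3 (344.6) lay below ND 1 (361.6), so HFD_HDCA and ND overlapped. The log2 differences were -0.18 ± 0.12 for HFD from ND (adjusted p = 0.642, edgeR), 0.42 ± 0.12 for HFD_HDCA from HFD (adjusted p = 0.0919) and 0.24 ± 0.12 for HFD_HDCA from ND (adjusted p = 0.25). DESeq2 passed the second of these (adjusted p = 0.0107).

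Cyp2f2, which oxidises naphthalene in lung and liver and is placed at the portal end of the lobule, stood at 1881, 1325 and 1792 CPM in ND. It read 838, 863 and 836 CPM in HFD and 971, 867 and 563 CPM in HFD_HDCA. Every library of the high-fat groups was below every ND library, and those groups overlapped each other. Cyp2f2 was 2.08-fold lower in HFD_HDCA than in ND (log2 change -1.06 ± 0.20, adjusted p = 0.0159, edgeR). This call was lost without ND 1 (adjusted p = 0.0803) or ND 3 (0.0583).

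The difference of Cyp2f2 between HFD and ND was nearly as large, at a log2 change of -0.98 ± 0.20, and missed the threshold (adjusted p = 0.0592). It passed in 6 of the alternatives: with DESeq2 (0.000177), with no filter on low counts (0.033), with the 6 libraries alone (0.0295), without HFD_HDCA 1 (0.0312), without HFD_HDCA 3 (0.0255) and without both HFD 1 and HFD_HDCA 1 (0.0394). HFD_HDCA and HFD differed by -0.08 ± 0.20 (adjusted p = 0.848).

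Cyp2j5, an epoxygenase of arachidonic acid on chromosome 4 at 96627432-96664119, varied little. It stood at 789, 861 and 921 CPM in ND, at 882, 1093 and 945 CPM in HFD and at 658, 825 and 945 CPM in HFD_HDCA. In CPM all 3 groups overlapped. In FPKM, HFD (189.8 to 222.1) lay above ND (154.3 to 175.3) and HFD_HDCA (122.8 to 183.7), which overlapped each other. The log2 differences were 0.18 ± 0.16 for HFD from ND (adjusted p = 0.724, edgeR), -0.27 ± 0.16 for HFD_HDCA from HFD (adjusted p = 0.342) and -0.08 ± 0.15 for HFD_HDCA from ND (adjusted p = 0.765).

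Por, on chromosome 5 at 135689214-135735325, stood at 212.5, 246 and 193 CPM in ND, at 200.5, 153 and 115 CPM in HFD and at 246, 214 and 204 CPM in HFD_HDCA. In CPM the HFD libraries were below all HFD_HDCA libraries, narrowly for HFD 1 (200.5) and HFD_HDCA 3 (204), while HFD 1 overlapped ND. In FPKM, HFD 1 (67.7) lay above HFD_HDCA 3 (62.4), so HFD and HFD_HDCA overlapped. The log2 difference was -0.48 ± 0.19 for HFD from ND (adjusted p = 0.354, edgeR), 0.50 ± 0.19 for HFD_HDCA from HFD (adjusted p = 0.155) and 0.03 ± 0.19 for HFD_HDCA from ND (adjusted p = 0.945). These values depended on HFD 1. Without it the difference of HFD_HDCA from HFD was 0.72 (adjusted p = 0.0367). Without both HFD 1 and HFD_HDCA 1 that difference was 0.66 (adjusted p = 0.0336), and that of HFD from ND was -0.72 (adjusted p = 0.0244).

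Levels of different genes were compared per length, in FPKM. Cyp2d9 led all groups, at 749.5 ± 43.6 in ND, 549 ± 109 in HFD and 831 ± 147 in HFD_HDCA (SD, n = 3). In ND it was followed by Cyp2f2 (715 ± 117), Cyp2d10 (329 ± 11.2), Cyp1a2 (289.8 ± 9.53), Cyp2a12 (269 ± 20.5), Cyp2a5 (199 ± 113), Cyp2j5 (167 ± 11.4), Por (66.6 ± 10.2), Cyp2a4 (25.4 ± 14.6) and Cyp2a22 (12.7 ± 1.44). In that order Cyp2d9 and Cyp2f2 overlapped, as did Cyp1a2 with Cyp2a12, Cyp2a12 with Cyp2a5, and Cyp2a5 with Cyp2j5, so the order within those pairs is not beyond their spread. Cyp2a4 and Cyp2a22 held the lowest ranks by group mean in every group, in FPKM and in reads per kilobase of the GENCODE mRNA. Their levels are uncertain, since the kinds of table differ on them. In single libraries Cyp2a4 reached 45.2 FPKM (HFD 1), above Por in HFD 3 (38.9).

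Cyp1a2 moved from rank 4 of 10 in ND to rank 7 in HFD (139 ± 28.3 FPKM) and rank 6 in HFD_HDCA (73.0 ± 15.2 FPKM), where it overlapped Por (67.7 ± 4.93 FPKM). Cyp2a5 stood at rank 6 in ND and HFD and rank 8 in HFD_HDCA (41.2 ± 8.60 FPKM), below all Por values of that group. Some ranks depend on the length used: by reads per kilobase of the GENCODE mRNA, Cyp2f2 led ND and Cyp2j5 stood at rank 4, not 7.

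The 9 cytochromes summed to 2532 to 3066 FPKM in ND, 1898 to 2219 in HFD and 1681 to 2276 in HFD_HDCA, so the high-fat groups overlapped and both lay below ND. The ratio of Cyp2d9 to Cyp2f2 FPKM was 0.983 to 1.22 in ND, 1.11 to 1.72 in HFD and 2.10 to 2.84 in HFD_HDCA, where it did not overlap the other groups. The ratio of Cyp2f2 to Cyp1a2 was 1.97 to 2.76 in ND, 2.32 to 3.37 in HFD and 4.26 to 5.21 in HFD_HDCA. Cytochrome FPKM per FPKM of Por was 32.7 to 47.1 in ND, 31.8 to 48.8 in HFD and 26.9 to 33.3 in HFD_HDCA, with overlap between all groups. These ratios were described without a test. The sums and ratios were not planned, and they restate values of genes already given, so they are not separate findings.

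The genes around the 10 were taken from lists of relatives, partners and regulators. Of 14 tested relatives in the Cyp1 and Cyp2 families, none passed the test between HFD and ND or between HFD_HDCA and HFD by edgeR, where 2 and 4 had an unadjusted p under 0.05 and DESeq2 called 1 and 1. Cyp2d11 and Cyp2d12 among them were counted at 0.591 to 1.07 and 1.64 to 1.97 CPM in the group means, against 40.5 to 50.5 and 16.5 to 24.7 FPKM. Between HFD_HDCA and ND 1 rose and 1 fell, and the median log2 change of the list was -0.15, against 0.03 over all genes tested. Cyp1a1, the inducible AHR target, fell from 2.19, 1.46 and 1.91 CPM in ND to 0.606, 0.349 and 0.301 CPM in HFD_HDCA, with 5 to 10 reads per library there (log2 change -2.13 ± 0.55, adjusted p = 0.0478). Cyp2d40 rose from 55.9 ± 0.110 to 109 ± 28.7 CPM (log2 change 0.96 ± 0.22, adjusted p = 0.0306). The calls were kept in 3 (Cyp1a1) and 5 (Cyp2d40) of the 9 fits that left out 1 library (adjusted p up to 0.159 and 0.12). Cyp2e1, the pericentral ethanol-oxidising cytochrome, stood at 7843 ± 676 CPM in ND, 8041 ± 1742 in HFD and 9416 ± 2268 in HFD_HDCA, and passed in no comparison (adjusted p = 0.969, 0.551 and 0.444).

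**Figure D5:**
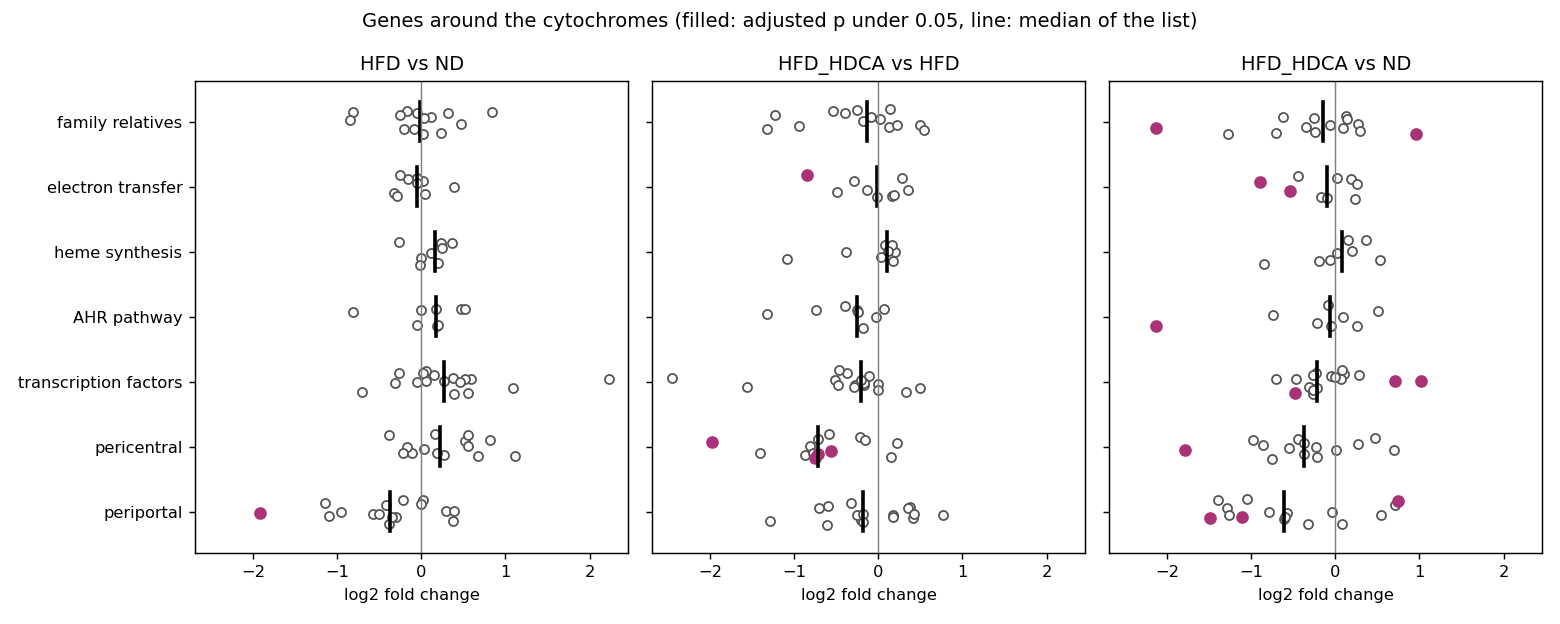
Log2 fold changes (x axis) of the tested genes of 7 lists in the 3 comparisons; filled points have an adjusted p under 0.05 by edgeR and the vertical line is the list's median. The pericentral median stands at -0.72 between HFD_HDCA and HFD.

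Among 9 electron transfer genes, Cyb5b, an outer mitochondrial membrane cytochrome b5, was 739, 768 and 782 CPM in ND, 631, 765 and 819 CPM in HFD and 377, 419 and 435 CPM in HFD_HDCA. It fell in HFD_HDCA against HFD (log2 change -0.85 ± 0.13, adjusted p = 0.0101) and against ND (-0.89 ± 0.13, adjusted p = 0.00475, edgeR), and both calls held in all 19 alternative settings. Fdxr, the mitochondrial ferredoxin reductase, fell between ND and HFD_HDCA (log2 change -0.54 ± 0.13, adjusted p = 0.0407, edgeR). That call was kept in 3 of the 9 fits without 1 library (adjusted p up to 0.155). The microsomal cytochrome b5, listed as Cyb5, stood at 1094 ± 65.2 CPM in ND and 1243 ± 214 CPM in HFD_HDCA (adjusted p = 0.511). Its reductase Cyb5r3 stood at 414 ± 18.7, 429 ± 83.0 and 304 ± 48.4 CPM in ND, HFD and HFD_HDCA, and the HFD_HDCA differences missed the threshold (adjusted p = 0.122 against HFD and 0.124 against ND). The list's medians were -0.05, -0.02 and -0.10, against 0.02, -0.002 and 0.03 over all genes.

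None of 8 heme synthesis genes passed in any comparison by edgeR, while 0, 2 and 2 had an unadjusted p under 0.05 and DESeq2 called 0, 2 and 0. Alas1, which makes the first precursor of heme, stood at 243, 285 and 213 CPM in ND, at 190.4, 462 and 223 CPM in HFD and at 104, 116 and 193 CPM in HFD_HDCA. The HFD_HDCA values overlapped those of HFD, and the differences missed the threshold (adjusted p = 0.123 against HFD and 0.169 against ND). Of 4 heme breakdown genes, Blvrb, a biliverdin reductase, rose from 106 ± 14.6 CPM in HFD to 171 ± 6.37 CPM in HFD_HDCA (log2 change 0.69 ± 0.12, adjusted p = 0.0142), which was lost in 2 of the 9 fits without 1 library (adjusted p up to 0.0569).

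Ahr, the receptor upstream of Cyp1a2, stood at 57.7, 41.2 and 59.6 CPM in ND, at 47.2, 63.8 and 47.4 CPM in HFD and at 39.7, 24.9 and 30.0 CPM in HFD_HDCA. Its HFD_HDCA libraries were below all others, and both differences missed the threshold (log2 change -0.74 ± 0.20, adjusted p = 0.0746 against HFD, and -0.75 ± 0.20, adjusted p = 0.0576 against ND, edgeR). Of the 8 tested genes of the AHR list, 1 passed in any comparison, Cyp1a1 between HFD_HDCA and ND, while 1, 2 and 3 had an unadjusted p under 0.05 and DESeq2 called 0, 1 and 2. The medians of that list were 0.18, -0.25 and -0.07.

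Among 17 transcription factors of liver cytochromes, none passed by edgeR between HFD and ND (7 at an unadjusted p under 0.05, 1 by DESeq2) or between HFD_HDCA and HFD (5 and 2), and 3 passed between HFD_HDCA and ND. Nr1i3, the constitutive androstane receptor that drives Cyp2b and Cyp2c genes, rose from 134 ± 11.7 to 272 ± 32.7 CPM (log2 change 1.02 ± 0.19, adjusted p = 0.0149, edgeR). Nr1h4, the bile acid receptor FXR, rose from 103 ± 14.8 to 169 ± 12.6 CPM (log2 change 0.71 ± 0.15, adjusted p = 0.0202). Hnf4a, a hepatocyte identity factor, fell from 746 ± 35.2 to 535 ± 54.5 CPM (log2 change -0.48 ± 0.12, adjusted p = 0.0431). With 1 library left out, these 3 calls were kept in 6, 6 and 2 of the 9 fits (adjusted p up to 0.0794, 0.103 and 0.15). None of 10 genes of the growth hormone axis, which sets sex differences of liver cytochromes, passed in any comparison by edgeR, where 2, 0 and 2 had an unadjusted p under 0.05 and DESeq2 called 0, 0 and 1.

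Genes known from the central end of the lobule, the zone where Cyp1a2 and Cyp2a5 are placed, had a median log2 change of 0.23 between HFD and ND, -0.72 between HFD_HDCA and HFD and -0.37 between HFD_HDCA and ND over 14 genes. Between HFD_HDCA and HFD 4 of the 14 fell and none rose: Slc1a4 (log2 change -1.98 ± 0.44), Rgn (-0.72 ± 0.16), Gulo (-0.56 ± 0.13) and Rnf43 (-0.76 ± 0.16), with an adjusted p of 0.0436, 0.0421, 0.0443 and 0.0311 by edgeR. With 1 library left out, the calls of these 4 were kept in 1, 2, 1 and 5 of the 9 fits (adjusted p up to 0.139, 0.118, 0.12 and 0.0936). Rhbg, an ammonium transporter, fell between ND and HFD_HDCA (log2 change -1.78 ± 0.38, adjusted p = 0.0248), a call kept in 4 of the 9 fits without 1 library (adjusted p up to 0.103). Over the 3 comparisons, 4, 9 and 6 of the 14 had an unadjusted p under 0.05, and DESeq2 called 1, 8 and 5. The lists were drawn up with results of these libraries known.

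Genes known from the portal end, the zone of Cyp2f2, had medians of -0.37, -0.19 and -0.60 over 16 genes, of which 1, 0 and 3 passed by edgeR, 7, 4 and 10 had an unadjusted p under 0.05, and DESeq2 called 3, 4 and 8. Sult5a1, a sulfotransferase, fell from 15.6 ± 4.63 CPM in ND to 4.14 ± 0.476 CPM in HFD (log2 change -1.91 ± 0.33, adjusted p = 0.0264, edgeR) and 5.55 ± 2.76 CPM in HFD_HDCA (-1.49 ± 0.32, adjusted p = 0.0264). Cps1, the first enzyme of the urea cycle, fell from 3237 ± 371 CPM in ND to 1500.3 ± 262 CPM in HFD_HDCA (log2 change -1.11 ± 0.17, adjusted p = 0.00619). Hsd17b13, a lipid droplet protein, rose from 355 ± 10.9 to 597 ± 20.0 CPM (log2 change 0.75 ± 0.10, adjusted p = 0.00409). The calls of Cps1 and Hsd17b13 held in all 19 alternative settings, and that of Sult5a1 between HFD and ND was lost in 5 of the 9 fits without 1 library (adjusted p up to 0.109). Its call between HFD_HDCA and ND was kept in 5 of the 9 (adjusted p up to 0.112). Ass1, of the same list, was counted at 3 to 14 reads per library against group means of 75.7 to 161 FPKM, so the tables differ on its level.

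The 250 bases before a start of each of the 10 genes (RefSeq, GRCm38.p6) were searched on both strands for short motifs. For Por the window (135688895-135689144) precedes an internal start, since the RefSeq gene begins at 135670040, and it does not touch the start in the deposited locus. The D-box TTATGTAA occurs in 0.819% of 32851 promoter windows of that length, its variant TTACGTAA in 0.113%, the core GCGTG of the AHR response element in 28.2% and the STAT5 type element TTCNNNGAA in 7.02%. Por held 3 matches to GCGTG, and the windows of the 9 cytochromes held none of the 4 motifs. A missing match says only that these letters are not in this window.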

How the data were processed

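The authors deposited 2 tables per liver: raw read counts per gene symbol, and FPKM per gene with loci. Per the submitters' processing notes, TopHat 1.3.2, Cufflinks 2.0.2 and build mm10 were used, with no role given. The deposited count tables come from HTSeq, per their names, which also hold the word antisense. What that word refers to is not stated, and its bearing on the counts was not tested. The version, strand setting and annotation of HTSeq are not given in the sources used here. The FPKM values were made by the authors with Cufflinks, per the file headers. The 5 classes of reads given to no gene were left out of library sizes.

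Counts were tested with edgeR 4.0.16 (R 4.3.3; TMM, filterByExpr with a minimum count of 10, robust quasi-likelihood F test) over all 9 libraries; 12587 genes were tested, and an adjusted p under 0.05 was called. The SE is the log2 change divided by the square root of F. Alternatives used DESeq2 1.42.0, other filters and scaling, left-out libraries, a replicate block, and limma 3.58.1 on log2(FPKM + 1) or log2(FPKM + 0.1) for genes with at least 1 FPKM in 3 libraries. The test was checked on simulated data. P-values weigh a difference between groups against the spread of these libraries within groups. The main edgeR fit estimates that spread over all 3 groups, so the group not compared also enters it. Counting limits how low genes can be read: 3 counts correspond to 0.146 to 0.177 CPM.

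The 10 genes and all lists were chosen with earlier results of these data known. Named genes were the 10, up to 4 called genes per list by smallest p, and Cyp2e1, Cyp1a1, Ahr, Alas1, Cyb5, Cyb5r3, Nr1i3, Dbp and Hnf4a. Saa1, Per2, Ass1, Cyp2d11, Cyp2d12 and Gm15883 were named after their values were seen. Coding sequences were aligned with Biopython 1.88, in place of the planned proteins. The planned promoter stretch of Por is not shown, since Por passed in no comparison of the main fit. Start positions of the loci were moved to count from 1. Sums of Cyp2a12 with Cyp2a22 and of all 4 Cyp2a genes, levels per GENCODE length, and the alternatives for list genes were added after seeing the data.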

Additional observations from a re-analysis of the deposited data

How the results depend on the processing

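The 30 log2 changes (10 genes, 3 comparisons) were recomputed in 19 or 20 ways each, giving 579 values. Of these, 477 kept direction and side of the threshold, 56 lost the call, 20 gained it and 26 turned direction. The 477 include differences that were not called and stayed so, and thus do not measure how stable the calls were. The calls of Cyp1a2 were kept in 14 (HFD vs ND), 11 (HFD_HDCA vs HFD) and 19 (HFD_HDCA vs ND) of 19 alternatives. Those of Cyp2a22 were kept in 12 (HFD vs ND) and 8 (HFD_HDCA vs HFD) of 20. Between HFD_HDCA and ND, 10 of 19 kept the call of Cyp2a4 and 7 of 20 that of Cyp2a5. For Cyp2a12 16 of 20 kept it, and for Cyp2f2 17 of 19. The turned values belong to Cyp2a4 (with FPKM + 1, FPKM + 0.1, FPKM + 1 with no filter, and the sum with Cyp2a5: -0.0393, -0.0449, -0.0393 and -0.0896 for HFD vs ND; -1.4929, -1.5950, -1.4929 and -2.0898 for HFD_HDCA vs HFD; -1.5322, -1.6398, -1.5322 and -2.1794 for HFD_HDCA vs ND) and Cyp2a22 (sum with Cyp2a12 -0.1703 for HFD vs ND; FPKM -0.6620, -0.7226 and -0.6620, sum -0.7725, for HFD_HDCA vs ND). With 1 library left out, values near 0 turned for Cyp2a5, HFD vs ND (-0.7216 to 0.4703), Cyp2f2, HFD_HDCA vs HFD (-0.2283 to 0.1188), Cyp2j5, HFD_HDCA vs ND (-0.2105 to 0.0438) and Por, HFD_HDCA vs ND (-0.0591 to 0.1245). Without both HFD 1 and HFD_HDCA 1 the last 2 were 0.0442 and -0.0586. The sums take the direction of Cyp2a5 and Cyp2a12, which hold nearly all of their reads. Their turns were thus fixed in advance and do not bear on Cyp2a4 or Cyp2a22. The cause of the other turns was not tested.

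Of the 10 genes, those called between HFD and ND (2) numbered 0 to 3 with 1 library left out, 4 without both HFD 1 and HFD_HDCA 1, and 1 in each FPKM setting. Between HFD_HDCA and HFD (2) they numbered 0 to 2 with 1 library left out, 6 with DESeq2, 4 at a minimum count of 50, 0 with the 6 libraries alone and 1 with FPKM and no filter. Between HFD_HDCA and ND (5) they numbered 1 to 5 with 1 library left out and 3 with FPKM and no filter. Over all genes, 120 were called between HFD and ND: 32 to 226 with 1 library left out, 380 with DESeq2, 576 without both libraries and 188 with FPKM + 1. Between HFD_HDCA and HFD 428 were called: 127 to 672, 1085 with DESeq2, 977 without both, 134 with the 6 libraries alone and 266 with FPKM and no filter; FPKM + 1 split its calls into 145 higher and 375 lower, against 210 and 218. Between HFD_HDCA and ND 815 were called: 196 to 1213, 1398 with DESeq2 and 527 with FPKM and no filter.

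Over all genes tested, deviations of same-numbered libraries correlated at -0.149 to 0.153, and other pairs at -0.146 to 0.13. Of the 9 libraries, 2 correlated best with their own number. With 3 libraries a group this cannot show whether same-numbered livers share an order or hour of sampling, which was not tested. With a replicate block 1, 2 and 4 of the 10 genes were called, and 82, 328 and 715 genes in all.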

Other observations

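The genes whose pattern over the 9 libraries came closest to each of the 10 were found by the root mean square gap between centred log2 CPM, as a description over 12586 other genes. Cyp1a2 was closest to Gm14403 (gap 0.297) and Gsta4 (0.325), a glutathione transferase. Cyp2a5 was closest to Tsc22d3 (0.389), a glucocorticoid-induced gene, and Ctgf (0.445). Cyp2a12 was closest to Mmp19 (0.126) and Steap3 (0.132), and Cyp2f2 to Kcp and Myh10 (0.186 each). Cyp2d9 was closest to Pvrl2 (0.171) and Grina (0.179), and Cyp2d10 to Tmem160 (0.0612) and Tmbim1 (0.0662). Por was closest to Cyp4f15 (0.106) and Abhd14a (0.128), and Cyp2j5 to Ccdc90a (0.0621) and Wdr75 (0.0737). Cyp2a4 was closest to Vnn1 (0.518) and Cgref1 (0.548), and Cyp2a22 to Slc26a4 (0.356) and C730002L08Rik (0.371), the widest gaps along with those of Cyp2a5. Small gaps go with genes that varied little, and no test was made.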
